A study of Mus musculus with 8 samples.

Results

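ATF4 and 6 further regulators of stress transcription were followed through input RNA and ribosome footprints of B16 cells, a pigmented melanoma cell line from mouse. The genes were chosen by symbol (Atf4, Atf3, Ddit3, Cebpb, Cebpg, Nupr1 and Trib3), and all 7 were among the 10453 genes of the deposited table. Cells in which Mettl5 had been edited with CRISPR/Cas9 (labelled KO) were compared with cells labelled WT, and both were grown in standard medium with no stress agent named in the labels. Each genotype had 2 libraries of input RNA and 2 libraries of ribosome-protected fragments (footprints), prepared after cycloheximide had halted the ribosomes, so there were 4 groups of 2 libraries. METTL5 is the enzyme that methylates adenosine (m6A) in 18S rRNA, the RNA of the small subunit of the ribosome. The labels do not say how many edited clones were used or whether the libraries of a group came from separate cultures, so a p-value here covers the scatter of the libraries at hand, which may be only technical.

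ATF4 is the transcription factor at the centre of the integrated stress response. When a kinase phosphorylates the initiation factor eIF2, most translation falls, while upstream open reading frames (uORFs) in the Atf4 mRNA allow the main coding sequence to be read more. ATF4 belongs to the bZIP family, whose members bind DNA as dimers, and it pairs with C/EBP proteins at composite sites in front of genes for amino acid supply. It also raises further regulators, among them Atf3, Ddit3 (which encodes CHOP), Nupr1 and Trib3.

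Footprint libraries were far shallower than input libraries, with between 2279456 and 3098930 recovered reads against between 11927567 and 18823632. The 7 melanocyte markers were all measured, with summed normalized reads between 78183.9 and 78499.6 in KO input and between 69307.5 and 69708.7 in WT input. In footprints that sum was between 188342.1 and 189926.8 in KO and between 142768.2 and 143294.6 in WT, and the part of this difference in the results below was not tested. Markers of leukocytes (1 of 8 in the table), fibroblasts (4 of 7) and epithelium or endothelium (2 of 8) summed to at most 133 normalized reads per list in any library. Mettl5 itself had 75.7 and 95.7 normalized reads in the input libraries labelled KO and 114 and 111 in WT input (log2 fold change -0.40, adjusted p = 0.00162). Its footprints numbered 109 and 112 normalized reads in KO and 91.1 and 113 in WT, so the groups overlapped (log2 fold change 0.12, adjusted p = 0.812), and its translational efficiency changed by 0.52 (adjusted p = 0.216). Counts per gene do not check a small edit. Since these are bulk libraries, a smaller share of cells with a transcript and less transcript per cell cannot be told apart.

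The sequences in front of Atf3, Nupr1 and Trib3 are shown because these were the members with the largest decreases in translational efficiency and 3 of the 5 with more input RNA in KO. Each line gives the 250 bases before the RefSeq start on GRCm38.p6, 5′ to 3′ on the gene's strand. Capitals mark matches, on either strand, to a C/EBP-ATF composite element (TGATGNAA) or to an ATF/CRE site (TNACGTCA), motifs chosen after the sequences had been seen.
Atf3 (chr1:191183334-191183583, minus strand): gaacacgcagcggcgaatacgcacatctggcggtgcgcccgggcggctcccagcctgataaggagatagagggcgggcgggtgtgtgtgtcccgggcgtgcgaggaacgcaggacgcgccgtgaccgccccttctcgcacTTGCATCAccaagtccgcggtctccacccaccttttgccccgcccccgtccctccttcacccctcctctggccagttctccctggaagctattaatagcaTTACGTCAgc
Nupr1 (chr7:126625471-126625720, minus strand): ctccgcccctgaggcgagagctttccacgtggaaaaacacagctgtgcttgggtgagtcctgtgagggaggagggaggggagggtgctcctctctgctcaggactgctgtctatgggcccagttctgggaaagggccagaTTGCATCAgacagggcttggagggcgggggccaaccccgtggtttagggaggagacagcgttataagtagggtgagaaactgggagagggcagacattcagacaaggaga
Trib3 (chr2:152344061-152344310, minus strand): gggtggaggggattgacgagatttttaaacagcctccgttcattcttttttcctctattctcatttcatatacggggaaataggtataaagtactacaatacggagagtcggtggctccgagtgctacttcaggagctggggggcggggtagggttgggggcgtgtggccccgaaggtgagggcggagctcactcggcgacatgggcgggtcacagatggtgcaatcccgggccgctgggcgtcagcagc
All 7 members were found in the RefSeq promoter table. The composite element occurred in the windows of 2 of them, Atf3 and Nupr1, in both from base 110 to base 103 before the start, and in 3.45% of all 32851 windows of that length. The ATF/CRE letters occurred in front of Atf3 alone, from base 10 to base 3 before the start, and in 2.52% of all windows. A match is a description of letters, and Trib3, Atf4, Ddit3, Cebpb and Cebpg held neither motif in this window.

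In input RNA, 5 of the 7 regulators (Atf4, Atf3, Ddit3, Nupr1 and Trib3) rose in KO, none fell, and Cebpb and Cebpg did not pass. Among all genes tested, 17.9% rose and 18.6% fell at the same threshold, 36.4% in all (limma, Benjamini-Hochberg adjusted p under 0.05). The median log2 fold change of the 7 was 0.39, against 0.0022 over all genes. In footprints the direction turned: Atf4, Atf3 and Trib3 fell, and none rose, where 6.22% of all genes fell and 6.3% rose, 12.5% in all. The median log2 fold change of the 7 in footprints was -0.59, against 0.0047 over all genes. Atf4, Atf3 and Trib3 were thus higher in input and lower in footprints, a combination that 1.2% of all genes showed. Translational efficiency, the footprint change relative to the input change, fell for 4 of the 7 (Atf4, Atf3, Nupr1 and Trib3) and rose for none, while it fell for 4.66% and rose for 5.11% of all genes, 9.78% in all. Those 4 were also higher in input, a pairing found in 2.54% of all genes. Both sides of that pairing use the same input libraries, so they are not independent. None of the 7 moved the other way in any of these comparisons at an unadjusted p under 0.05 in limma, or with edgeR or DESeq2. A fold change here is on the scale of log2(normalized reads + 1), which understates the change of low genes.

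**Figure D1:**
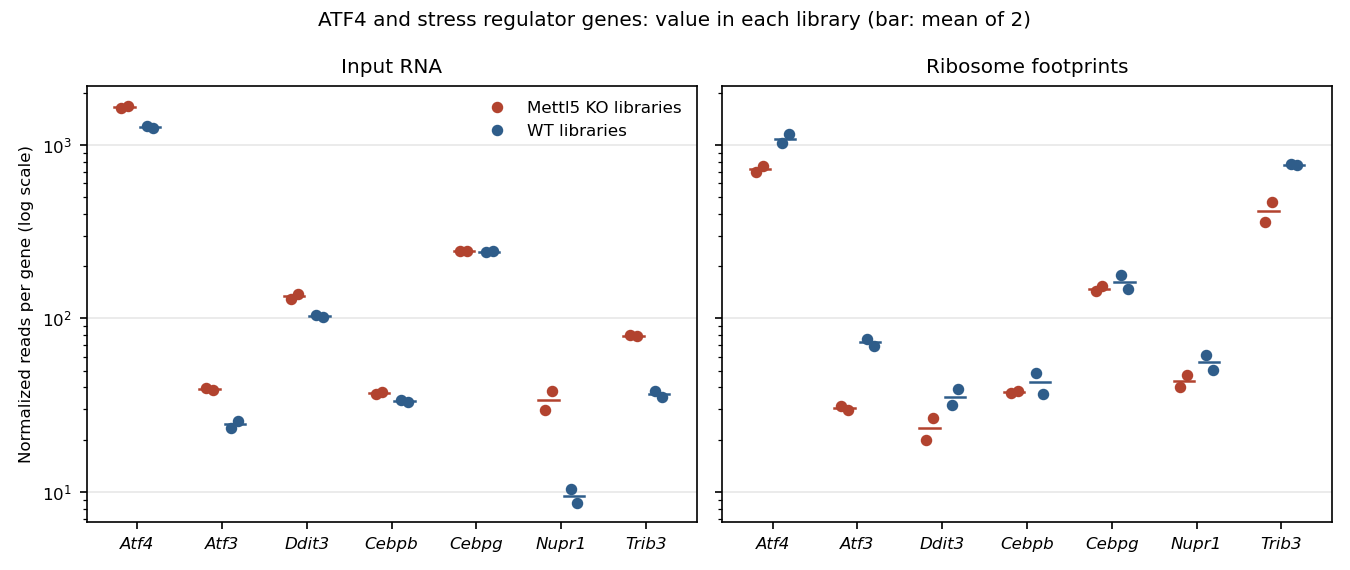
Normalized reads per gene in each library (log scale), with KO points left of WT points and a bar at the mean of 2. In input, the KO points of all 7 genes lie above the WT points, where 66.4% of all genes had no overlap in either direction. In footprints the KO points of Atf4, Atf3, Ddit3, Nupr1 and Trib3 lie below the WT points, where that share was 52.7%. The input changes of Cebpb and Cebpg and the footprint changes of Ddit3 and Nupr1 did not pass.

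Atf4 (ENSMUSG00000042406.7, chromosome 15, 80255184 to 80257545, GRCm38) encodes the bZIP activator itself and had the most reads of the 7. Its input RNA stood at 1631.2 and 1676.3 normalized reads in KO and at 1278.5 and 1251.0 in WT. The footprints on Atf4 numbered 694 and 750 normalized reads in KO (243 and 254 sequenced reads) and 1025.8 and 1147.2 in WT (484 and 499 sequenced reads). The KO libraries were thus the higher pair in input and the lower pair in footprints, with no overlap in either. Input of Atf4 rose 1.31-fold, with a log2 fold change of 0.39 (SE 0.026, adjusted p = 3.34e-15), while its footprints fell by 0.59 on the log2 scale (SE 0.081, adjusted p = 8.17e-06). Its translational efficiency fell by 0.97 (SE 0.083, 95% interval -1.16 to -0.79, adjusted p = 0.000103), a 1.96-fold decrease. The adjusted p of the footprint decrease was 0.198 when limma fitted variances with no trend on level, and it lay between 1.65e-11 and 0.198 over 13 alternatives. The sources used here do not say whether footprints were counted over the coding sequence alone, so footprints in the uORFs of Atf4 may be part of its value.

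Cebpb and Cebpg encode C/EBP beta and C/EBP gamma, bZIP proteins that dimerize with ATF4. Cebpg (ENSMUSG00000056216.9, chromosome 7, 35046422 to 35056566) was the steadiest of the 7, with 244 and 246 normalized reads in KO input and 240 and 243 in WT input. The input change of Cebpg was 0.019 ± 0.058 on the log2 scale (SE, 95% interval -0.10 to 0.14, adjusted p = 0.834). Its footprints numbered 143 and 154 normalized reads in KO and 178 and 147 in WT, groups that overlap. The translational efficiency of Cebpg changed by -0.15 (95% interval -0.51 to 0.22, adjusted p = 0.637). A decrease as large as that of Atf4 lies outside this interval. The interval is likely too narrow, though, as its SE (0.16) was below that of the footprint change alone (0.19). Cebpb (ENSMUSG00000056501.3, chromosome 2, 167688915 to 167690432) had 36.5 and 37.5 normalized reads in KO input and 33.9 and 32.8 in WT input. The footprints on Cebpb, 37.1 and 38.4 normalized reads in KO and 48.7 and 36.8 in WT, came from 26 and 39 sequenced reads in all. The KO and WT footprint libraries of Cebpb overlap. Its translational efficiency changed by -0.31 (95% interval -1.03 to 0.42, adjusted p = 0.616), an interval wide enough to hold the value of Atf4. Cebpg shares 1084 bases of its annotated span with the predicted gene Gm45095.

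Atf3 (ENSMUSG00000026628.13, chromosome 1, 191170296 to 191183333) encodes a bZIP factor that is induced by many stresses and often acts as a repressor. Its input stood at 39.9 and 38.7 normalized reads in KO and at 23.5 and 25.6 in WT. Footprints on Atf3 numbered 31.4 and 29.5 normalized reads in KO and 76.3 and 69 in WT, from 21 and 66 sequenced reads in all. Both KO libraries were above both WT libraries in input and below them in footprints. Input of Atf3 rose 1.58-fold, by 0.66 on the log2 scale (SE 0.16, adjusted p = 0.00109), and its footprints fell by 1.22 (SE 0.33, adjusted p = 0.0143). Translational efficiency of Atf3 fell 3.68-fold (log2 fold change -1.88, 95% interval -2.55 to -1.21, adjusted p = 0.00436), and 19 of 10443 genes had a more negative value. Its input call was lost with DESeq2 (adjusted p = 0.0631, from 0.000328 over all alternatives), and its footprint call without WT footprint replicate 1 (0.167) or replicate 2 (0.0981), without limma's trend (0.196) and with DESeq2 when that tool's filter on mean level was switched off (0.324), where the lowest was 0.00778. The translational efficiency call held in all 16 alternatives that gave it a value, with adjusted p between 0.000203 and 0.0394.

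Ddit3 (ENSMUSG00000025408.15, chromosome 10, 127290793 to 127296291) encodes CHOP, a C/EBP-related factor tied to cell death under prolonged stress, and its mRNA also carries a uORF. Its input stood at 130 and 138 normalized reads in KO and at 105 and 102 in WT, a rise of 0.37 on the log2 scale (SE 0.085, adjusted p = 0.000559). Footprints on Ddit3 numbered 20 and 26.6 normalized reads in KO and 31.8 and 39.1 in WT. These came from 7 and 9 sequenced reads in KO and 15 and 17 in WT, the fewest of the 7 over all footprint libraries, and the groups did not overlap. The footprint change of Ddit3 was -0.59 ± 0.41 on the log2 scale (SE, adjusted p = 0.414), and its change in translational efficiency -0.96 (95% interval -1.62 to -0.31, adjusted p = 0.0696). The point estimates are close to those of Atf4, but neither passed. The SE of the translational efficiency change was 0.29, below that of footprints alone, since 1 variance was fitted over both kinds of library. That interval is therefore likely too narrow. The translational efficiency change passed without KO footprint replicate 2 (adjusted p = 0.016) and without WT footprint replicate 1 (adjusted p = 0.0464), and in none of its other alternatives, the highest adjusted p being 0.288. The annotated span of Ddit3 shares 77 bases with Mbd6 and 71 with the methionyl-tRNA synthetase gene at its other end, and whether counting used strand is not given in the sources used here.

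Nupr1 (ENSMUSG00000030717.9, chromosome 7, 126623246 to 126625470) encodes a small stress-induced nuclear protein that acts on chromatin and transcription. Its input stood at 29.7 and 38.3 normalized reads in KO and at 10.4 and 8.69 in WT, and 1 of 10443 genes had a larger log2 fold change in input. The WT values rest on 26 and 18 sequenced reads. Footprints on Nupr1 numbered 40 and 47.3 normalized reads in KO and 61.5 and 50.6 in WT, from 30 and 51 sequenced reads in all. The KO footprint libraries were both below the WT ones, but the change of -0.35 ± 0.33 on the log2 scale (SE, 95% interval -1.03 to 0.33, adjusted p = 0.568) did not pass. Relative to its input, which rose 3.31-fold, the footprints of Nupr1 fell by 2.08 on the log2 scale (95% interval -2.90 to -1.25, adjusted p = 0.00711), and 7 genes had a more negative value. Without KO input replicate 2, the value was -1.90 with an adjusted p of 0.0617, the highest over its alternatives (the lowest was 0.000158). The whole Nupr1 gene, 2225 bases, lies inside the annotated long noncoding RNA Gm39087, so reads of the pair could not be told apart if counting ignored strand.

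Trib3 (ENSMUSG00000032715.9, chromosome 2, 152337425 to 152344060) encodes a pseudokinase that binds ATF4 and CHOP and limits their activity, and it is itself a target of both. Its input stood at 80.4 and 78.9 normalized reads in KO and at 38.3 and 35.2 in WT. Footprints on Trib3 numbered 360 and 470 normalized reads in KO (126 and 159 sequenced reads) and 771 and 761 in WT (364 and 331 sequenced reads). KO was the higher pair in input and the lower pair in footprints, without overlap. Input of Trib3 rose 2.14-fold, by 1.10 on the log2 scale (SE 0.12, adjusted p = 2.23e-09), and its footprints fell by 0.90 (SE 0.11, adjusted p = 1.5e-06). Translational efficiency of Trib3 fell 3.98-fold (log2 fold change -1.99, 95% interval -2.42 to -1.56, adjusted p = 0.000221), and 11 genes had a more negative value. Over 13 alternatives the adjusted p of its footprint decrease ran from 1.84e-19 to 0.198, and it was highest without limma's trend.

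**Figure D2:**
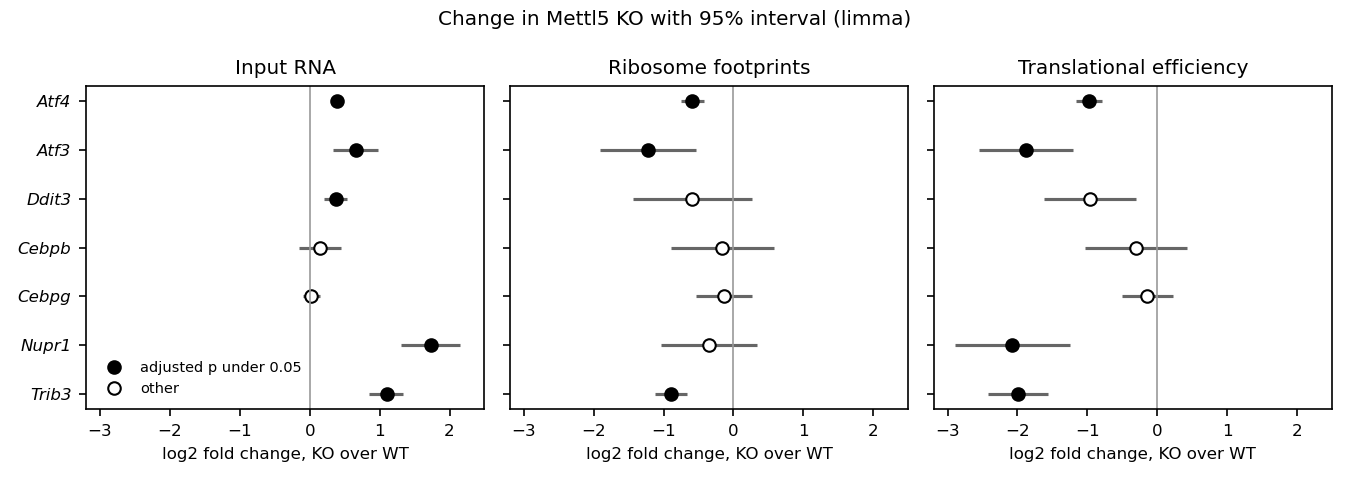
Log2 fold change of KO over WT for each regulator in input RNA, footprints and translational efficiency, with 95% intervals from limma (filled points: adjusted p under 0.05). Input changes run between 0.019 (Cebpg) and 1.73 (Nupr1), and translational efficiency changes between -2.08 (Nupr1) and -0.15 (Cebpg).

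The KO and WT libraries did not overlap for 7 of the 7 regulators in input and for 5 of 7 in footprints, against 66.4% and 52.7% of all genes. Input log2 changes of Atf4 and Ddit3 were near each other (0.39 and 0.37), and those of Atf3, Trib3 and Nupr1 were larger (0.66, 1.10 and 1.73). The log2 changes in translational efficiency, which use the same input libraries, were -0.97 and -0.96 for Atf4 and Ddit3 and between -2.08 and -1.88 for the other three.

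The ratio of mean footprint to mean input value placed the 7 regulators far apart within each genotype. It was taken from the deposited normalized values with no further scaling, and the median gene stood at 1 in both genotypes. The ratio also depends on how much of a transcript is coding. It is thus given per gene, with its lowest and highest value over the 4 pairings of libraries. Trib3 had a ratio of 5.21 in KO (4.48 to 5.95) and 20.8 in WT (19.9 to 21.9), above those of 98.1% and 99.5% of genes. The ratio of Nupr1 was 1.28 in KO (1.04 to 1.59) and 5.88 in WT (4.88 to 7.07). For Atf3 it was 0.776 in KO (0.741 to 0.812) and 2.96 in WT (2.7 to 3.24). Thus Nupr1 and Atf3 stood above 98.4% and 91.6% of genes in WT, but above only 61.6% and 38.2% of genes in KO.

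Atf4 had a ratio of 0.437 in KO (0.414 to 0.46) and 0.859 in WT (0.802 to 0.917), and Ddit3 one of 0.174 in KO (0.145 to 0.204) and 0.343 in WT (0.303 to 0.384). Both mRNAs therefore carried fewer footprints for their input than the median gene in either genotype. Cebpb had 1.02 in KO (0.99 to 1.05) and 1.28 in WT (1.08 to 1.48). The ratio of Cebpg was 0.605 in KO (0.58 to 0.63) and 0.672 in WT (0.605 to 0.741), the 1 gene of the 7 whose pairings overlapped between genotypes. The share of all genes without such overlap was not counted. For the libraries themselves, lack of overlap was common (66.4% of all genes in input and 52.7% in footprints). From high to low, the order in WT was Trib3, Nupr1, Atf3, Cebpb, Atf4, Cebpg and Ddit3, with no overlap between neighbours. In KO it was Trib3, Nupr1, Cebpb, Atf3, Cebpg, Atf4 and Ddit3, and there Nupr1 and Cebpb overlapped.

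**Figure D3:**
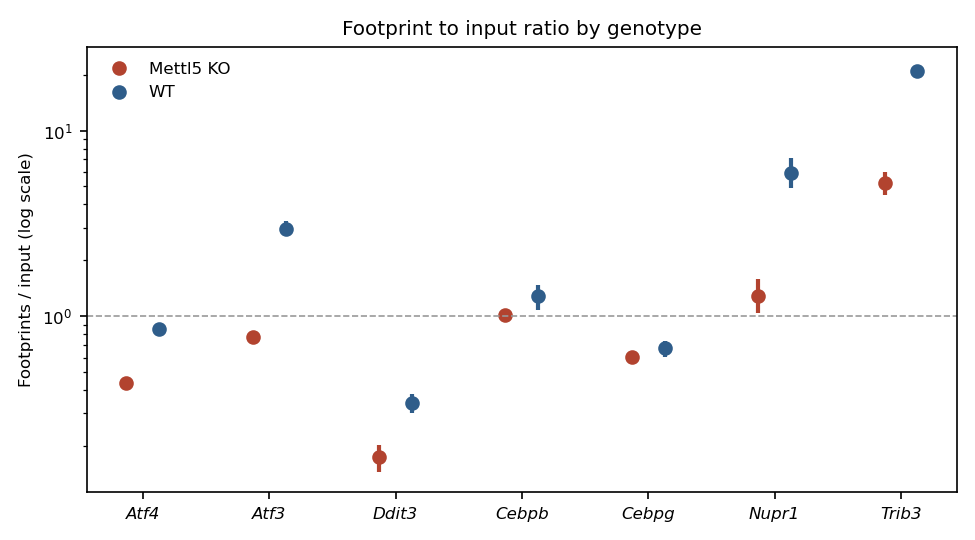
Footprint to input ratio (log scale) of each regulator in KO (left) and WT (right), with the range over the 4 pairings of libraries and a dashed line at the median gene. The KO ratio is the lower one for all 7, from 0.174 (Ddit3) to 5.21 (Trib3) in KO and from 0.343 to 20.8 in WT. Over all genes the median log2 change in translational efficiency was 0.005.

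In the authors' deposited table, the log2 fold change of translational efficiency was -2.00 for Trib3 (adjusted p 6.26e-22) and -0.97 for Atf4 (adjusted p 7.37e-21), and both were called Down. The authors' deposited table gave Nupr1 -2.19 (p-value 1.27e-05) and Atf3 -1.94 (p-value 2.1e-05), but listed an adjusted p of exactly 1 for both and called neither. Ddit3 stood at -0.97 (adjusted p 0.193), Cebpb at -0.33 and Cebpg at -0.16 in the authors' deposited table, also without a call.

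Known targets of ATF4 were set beside its regulators, by role. Genes of amino acid supply rose in input in 16 of 20 cases and fell in none (median log2 fold change 0.28), where 17.9% of all genes rose. Their footprints fell in 8 and rose in none (median -0.19), and their translational efficiency fell in 15 and rose in none (median -0.46), against decreases in 6.22% and 4.66% of all genes. Of the 8 footprint decreases, DESeq2 called 4 and gave no adjusted p to 1, and edgeR called 9 decreases in the list. Counts against the direction of these changes were also 0 at an unadjusted p under 0.05 and with edgeR and DESeq2. Gpt2, the mitochondrial alanine aminotransferase, had a log2 fold change of 1.25 in input and -1.12 in translational efficiency. Its footprints did not fall (0.13, adjusted p = 0.468 by limma). For Mthfd2, a mitochondrial folate enzyme, footprints fell by 0.79 although input rose by 0.35 on the log2 scale. Slc7a11, the cystine carrier, changed by 0.87 in input and by -1.03 in footprints, with a translational efficiency change of -1.90.

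The 12 listed aminoacyl-tRNA synthetases, which charge tRNAs with amino acids, rose in input in 11 cases (median 0.25), and 7 fell and 2 rose in footprints (median -0.15), where DESeq2 called 3 as lower and 0 as higher. Their translational efficiency fell in 9 and rose in none, also at an unadjusted p and with edgeR and DESeq2 (median -0.37), led by Cars (-0.83) and Sars (-0.78). The shares of all genes are those given for the amino acid supply list, and 6.3% of all genes rose in footprints. Eprs, whose mRNA is known for uORFs, did not pass in any comparison and changed by 0.023 in input and -0.0096 in translational efficiency. Of 14 measured effectors of ATF4 and CHOP, 7 rose and 3 fell in input, against 17.9% and 18.6% of all genes, so the share that fell is near that of all genes. Footprints rose for 2 and fell for 5 of them, against 6.3% and 6.22% of all genes. Translational efficiency rose for 1 and fell for 5, against 5.11% and 4.66% of all genes. DESeq2 called 2 of the footprint decreases and neither increase, while edgeR called 5 and 2. Chac1, which degrades glutathione, changed by 1.63 in input and -1.23 in footprints, and Sesn2, a leucine sensor that restrains mTORC1, by 0.69 and -0.69. Herpud1, a component of degradation from the endoplasmic reticulum, rose in input (1.16), and its footprint rise of 0.21 (limma adjusted p = 0.0322, edgeR 0.0288) was lost with DESeq2 (adjusted p = 0.309). These lists were chosen with earlier results known, and they share genes with each other.

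**Figure D4:**
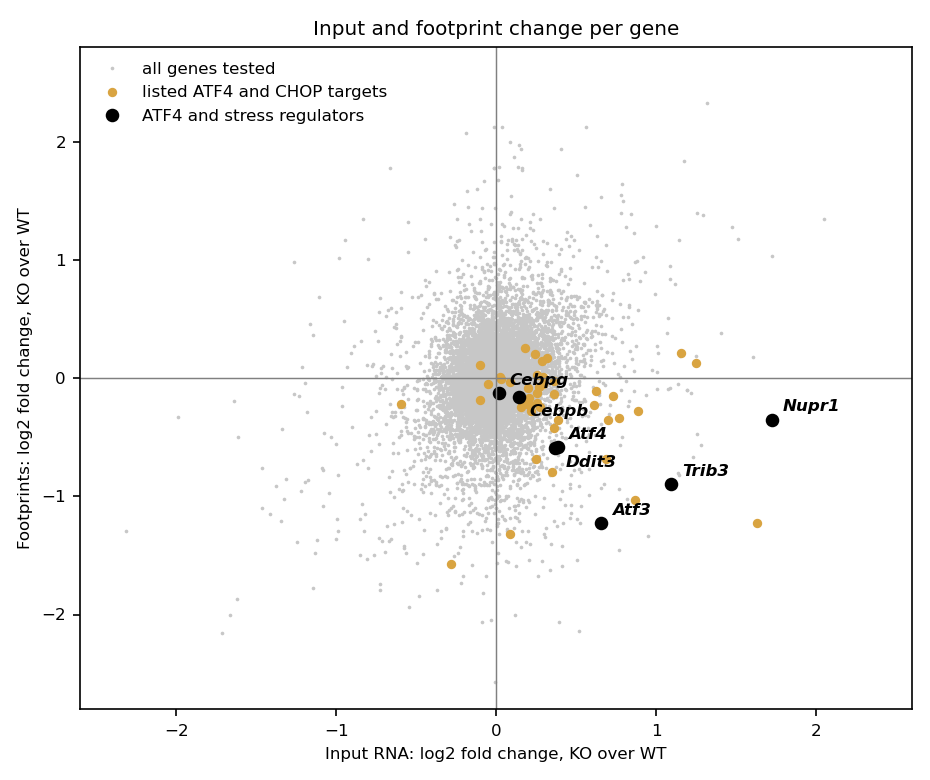
Log2 fold change of KO over WT in footprints against that in input, 1 point per gene, with listed ATF4 and CHOP targets and the 7 regulators marked. Atf4 (0.39, -0.59), Ddit3, Atf3 (0.66, -1.22), Trib3 (1.10, -0.90) and Nupr1 (1.73, -0.35) lie to the lower right, while Cebpb and Cebpg lie near the centre of all genes.

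Upstream of ATF4 stand the eIF2 kinases, the phosphatase subunits, eIF2 and its exchange factor eIF2B. Of 14 such genes, 3 rose and 3 fell in input (log2 changes between -0.23 and 0.23), shares near the 17.9% and 18.6% of all genes, and DESeq2 called 0 as higher and 2 as lower. In footprints 1 of the 14 fell by limma and none rose, a share near the 6.22% of all genes that fell. It was Eif2b1, an eIF2B subunit (-0.25, adjusted p = 0.0113), which edgeR (0.00364) called too but DESeq2 (0.137) did not. None passed in translational efficiency by limma, where 4.66% of all genes fell and 5.11% rose. At an unadjusted p under 0.05, 1 rose and 2 fell in translational efficiency, edgeR called 2 as lower and DESeq2 called 1 as lower. The shares of all genes at these settings are not given here. Eif2ak3, which encodes the endoplasmic reticulum kinase PERK, rose by 0.23 in input by limma (adjusted p = 0.000782) and edgeR (0.00122) but not by DESeq2 (0.0572). Eif2s1, which encodes eIF2 alpha, fell by 0.23 with all 3 tools (adjusted p between 1.3e-08 and 3.76e-06). Phosphorylation of eIF2 was not measured here.

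Among 9 measured mRNAs known for uORF control, which include Atf4, Ddit3 and Cebpb, 4 rose in input, 2 fell in footprints and 3 had a lower translational efficiency (median -0.31). Over all genes 17.9% rose in input, 6.22% fell in footprints and 4.66% fell in translational efficiency, and Atf4 and Ddit3 are 2 of the 4 that rose here. None of the 9 was called the other way, also at an unadjusted p under 0.05 and with edgeR and DESeq2. Slc35a4 had opposite estimates that did not pass by limma, from 56 footprint reads in KO and 50 in WT. They were 0.53 in footprints (adjusted p = 0.286) and 0.49 in translational efficiency (adjusted p = 0.215). Atf5, a bZIP factor close to ATF4 whose mRNA has a like uORF layout, rose by 0.41 in input, and its translational efficiency fell by 0.99 by limma (adjusted p = 0.0414), a call that edgeR (0.072) and DESeq2 (0.107) did not make. Its footprints rest on 19 reads in KO and 38 in WT, and their change of -0.59 did not pass (adjusted p = 0.383). Ibtk fell by 0.59 in both footprints and translational efficiency, with an input change of 0.0034, and DESeq2 did not call its footprint change (adjusted p = 0.0797, against 0.00366 by limma and 0.0011 by edgeR). Ppp1r15b, a constitutive subunit of the eIF2 phosphatase, had 353 footprint reads in KO and 475 in WT, and its translational efficiency changed by -0.11 (adjusted p = 0.349). The stress-induced subunit Ppp1r15a had only 7 footprint reads in each genotype.

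For each regulator, the 3 genes most like it were sought by Pearson's r over the 8 libraries, after the mean of each kind of library had been taken off log2(normalized reads + 1). Candidates were 7822 genes with at least 20 reads in every library. The best r values, between 0.969 and 0.998, are descriptions over points that share genotype and scaling. They were highest for Mrpl20, Mydgf and Cyc1 with Atf4, for Nudt16l1, Cfl1 and Mthfd2 with Atf3, and for Chac1, Glmp and Hist1h3c with Trib3. Ddit3 was matched by Nabp2, Aldoc and Ubald1, and Nupr1 by Ndufv2, Atp5b and Aldh18a1. Such r values take no account of the size of a change. Input log2 changes ran from 0.07 (Nabp2) to 0.37 (Ubald1) beside Ddit3 (0.37). Beside Nupr1 (1.73) they ran from 0.10 (Ndufv2) to 0.62 (Aldh18a1). Cebpb was matched by Syf2, Zbtb21 and Hps1, and Cebpg by Ahcyl1, Ubp1 and Prkab1. Among the 7 themselves, Atf4 had r of 0.96 with Ddit3, 0.95 with Atf3 and 0.94 with Trib3, 0.68 with Nupr1, 0.48 with Cebpb and 0.38 with Cebpg. Cebpb and Cebpg had r of 0.91 with each other, though neither passed in any comparison. WT footprint replicate 1 was the highest footprint library for both (48.7 and 178 normalized reads). What the r of this pair owes to that library was not tested.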

How the data were processed

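Input RNA and ribosome footprints were measured in B16 cells, in 8 libraries of 4 groups. The authors deposited 1 table of normalized read values per gene (unit treated as signal). Per the submitters' processing notes, reads were handled with Bowtie and build mm10. The counter, annotation and use of strand, and whether input was polyadenylated or rRNA-depleted RNA, are not settled by the labels. In every library 100% of these deposited values were whole multiples of the value of 1 read, within 0.001 of a read, so the reads could be recovered. For translational efficiency the authors deposited log2 fold changes with p-values, raw and adjusted, from a test that no label or header names. A DESeq2 fit of the interaction on the recovered reads differed from the deposited log2 values by over 0.001 in 0 genes.

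Values were tested with limma-trend after a log2(value + 1) transform (limma 3.58.1 in R 4.3.3), leaving out genes whose mean was under 1. Input and footprints were fitted alone, and translational efficiency as the interaction term of a fit to all 8 libraries. There each gene has 1 variance for both kinds, so the SE can be too small where footprints scatter more than input. It was below the SE of footprints alone for Atf3, Ddit3, Cebpb and Cebpg, but not for Atf4, Nupr1 and Trib3. The translational efficiency intervals of those first genes are likely too narrow. All tests were two-sided and Benjamini-Hochberg adjusted over all genes (threshold 0.05). Only the limma fits were also run on simulated counts, in which far fewer genes changed than were called here. That run therefore does not vouch for the counts given here. edgeR 4.0.16 and DESeq2 1.42.0 on the recovered reads, another pseudocount (4), filters, scaling and variance models, a replicate block and leaving out libraries were alternatives. Named genes are the 7 members, Mettl5, up to 4 genes per list and comparison with the largest called change, and 3 most similar genes per member. Eprs, Ppp1r15a, Slc35a4 and genes quoted in a second comparison were named after their values were seen. The members and gene lists were chosen with earlier results of these data known. Coordinates are those of RefSeq on GRCm38. 16 symbols stored as dates were replaced by way of their gene IDs.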

Additional observations from a re-analysis of the deposited data

How the results depend on the processing

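Over the 7 regulators and 3 comparisons, 278 of 291 alternative values kept their direction and their side of the threshold. The input calls of Atf4, Ddit3, Nupr1 and Trib3 and the translational efficiency calls of Atf4, Atf3 and Trib3 held in every alternative that gave a value. Signs turned for Cebpb and Cebpg in footprints, at 0.037 and 0.0095 without WT footprint replicate 1, and their lowest values were -0.36 and -0.26 without WT footprint replicate 2. Counts over all genes moved more. With DESeq2, 1721 genes were called in input, with and without its filter on mean level (an alternative chosen after seeing the data), against 3803 with limma. In footprints DESeq2 called 460 genes with that filter and 382 without it, against 1309. Without limma's trend, 1276 genes were called in input, 133 in translational efficiency (against 1021) and 0 in footprints, where 1807 genes had an unadjusted p under 0.05 and edgeR called 1473. In that setting 0 of the 7 regulators were called in footprints, against 3. Leaving out 1 library gave between 2856 and 3442 genes in input and between 788 (without WT footprint replicate 2) and 1391 in footprints, where WT footprint replicate 1 gave 807. In translational efficiency it gave between 419 and 1719, with 419, 428, 446 and 431 when an input library was left out and 1719 and 1675 when a KO footprint library was. Of the regulators, leaving out 1 library called 5 in input throughout, between 2 and 3 in footprints, and between 3 and 5 in translational efficiency. With the replicate number as a block, 3877, 1548 and 938 genes were called in input, footprints and translational efficiency, and 5, 3 and 4 regulators. The number pairs nothing that the labels name, and same-numbered libraries did not deviate together (r of deviations between -0.031 and 0.006 over 7822 genes). DESeq2 gave no adjusted p to 3 regulators in translational efficiency and to 5 in footprints, and requiring 20 reads or more per library left out 4 regulators in footprints and in translational efficiency and Nupr1 in input. The causes of these differences were not tested. Footprint depth limits Ddit3, Cebpb, Nupr1 and Atf3 most, with 66 reads or fewer per genotype.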

Other observations

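Other bZIP factors, possible partners or rivals of ATF4 in dimers, were set apart in a list. Of 33 measured, 11 rose and 3 fell in input, 3 rose and none fell in footprints by limma, and 1 rose and 3 fell in translational efficiency. These are 14, 3 and 4 of 33 called, shares near those of all genes when both directions are pooled (36.4%, 12.5% and 9.78%). By direction, the input calls leaned to a rise, where 17.9% of all genes rose and 18.6% fell. In input edgeR called 10 as higher and 4 as lower, and DESeq2 6 and 1. In footprints 3 fell at an unadjusted p under 0.05, and edgeR and DESeq2 called 0 as lower. DESeq2 also called 0 as higher there, and edgeR 4. Junb, an AP-1 subunit, rose in footprints (228 normalized reads in KO and 121 in WT, log2 fold change 0.93, adjusted p = 0.00209 by limma and 0.000329 by edgeR, with no adjusted p from DESeq2) and by 0.46 in input. Xbp1, the target of the endoplasmic reticulum sensor IRE1, rose by 0.30 in input and by 0.36 in footprints (adjusted p = 0.00608 by limma, 0.00225 by edgeR), the footprint call being lost with DESeq2 (0.109). Jdp2, a repressor of AP-1 sites, rose by 0.65 in input. Hlf, a bZIP factor of the circadian PAR family, fell by 0.70 in input, and Atf7 was the 1 gene whose translational efficiency rose (1.04, from 40 footprint reads in KO and 25 in WT). Atf6, the membrane-bound sensor of the endoplasmic reticulum, rose by 0.27 in input, and its translational efficiency fell by 0.46.

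In the authors' deposited table, 1824 genes have an adjusted p of exactly 1, and they are the same 1824 genes to which DESeq2's filter on mean level gives no adjusted p. Of the 7 regulators, 3 are among them: Atf3, Nupr1 and Cebpb. With that filter switched off, DESeq2 gave adjusted p = 0.000616 for Atf3 and adjusted p = 0.000407 for Nupr1 in translational efficiency, and 0.771 for Cebpb.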
